A study of Mus musculus with 13 samples.

Results

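The genes described here are 42 genes of mitosis and the kinetochore, the protein assembly on each centromere to which spindle microtubules attach. They were chosen by name for their known function, and all 42 were found among the 17849 genes of the expression table through their Ensembl identifiers. All 42 also passed the filter on low counts that 12003 genes passed. The series profiled mouse CD4+CD8+ double-positive thymocytes sorted from the thymus to relate, by its design text, where cohesin and its partners bind to the RNA and chromosome folding of cells without it. The RNA-seq arm holds 2 wild type samples and 2 labelled Rad21 KO, knockout for a subunit of the cohesin ring. The labels of the RNA samples give genotype and cell type, and leave out the means and site of the deletion, the strain and the age of the mice. The labels also list 3 ChIP-seq, 2 ChIP input and 4 Hi-C libraries, which bear on none of the results below.

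Cohesin holds sister chromatids together from their replication until anaphase, when the protease separase cuts Rad21 and the sisters part. Mitotic kinases drive cells into division, kinetochores capture microtubules, and the spindle checkpoint delays anaphase until every chromosome is attached. The genes involved are transcribed together late in the cell cycle, largely through promoter elements bound by the MuvB and NF-Y complexes. Most double-positive thymocytes are small resting cells, and division occurs mainly in the large blasts that enter the stage.

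The 4 RNA-seq libraries held between 6500819 and 9384505 counts. Of these, Lars2 and Gm15564 alone accounted for 34.5% (Rad21 KO replicate 1), 12.6% (Rad21 KO replicate 2), 5.84% (wild type replicate 1) and 7.47% (wild type replicate 2), and the remainder ran from 6015242 to 6245781. Levels are given as CPM, in which TMM scaling makes the libraries comparable. A count of 3 corresponded to 0.410 to 0.417 CPM. Rad21 itself had 67.9 and 65.7 CPM in the knockout and 271 and 233 CPM in wild type (log2 fold change -1.91, SE 0.12, 2 libraries per genotype, edgeR adjusted p = 0.000862). Of 9 genes listed as markers of double-positive thymocytes, 8 exceeded 79 CPM in every library. Ptcra, which is not specific to that stage, lay at 7.62 to 19.4 CPM. The 9 genes summed to 9631 and 8315 CPM in the knockout and 13380 and 12004 CPM in wild type, with Rag1, Rag2 and Dntt lower and Ptcra higher. Markers of other cells that a thymus sort could hold were low. Summed levels over the libraries were 13.3 to 18.2 CPM for 5 B cell genes, 10.3 to 15.7 for 6 myeloid genes and 2.05 to 4.03 for the 3 matched erythroid genes. The 5 genes of thymic epithelium summed to 24.6 and 28.6 CPM in the knockout and 17.8 and 17.3 in wild type. Among them Epcam was the marker that rose, and Foxn1, Krt5 and Krt8 lay at 0 to 0.683 CPM. Psmb11 made up most of the sum in every library. It stood at 14.9 and 16.3 CPM in the knockout and 15.03 and 15.5 in wild type (log2 fold change 0.03, SE 0.18). The 6 genes of earlier thymocytes summed to 27.5 and 31.3 CPM in the knockout and 35.8 and 37.5 in wild type, with Cd44 lower and Hes1 higher. The lower sum lay in Cd44 alone, at 1.51 and 2.36 CPM in the knockout and 13.1 and 13.4 in wild type. Il2ra, the largest part of the sum, was level (log2 fold change -0.03, SE 0.17). Hes1 (4.19, SE 0.78) and Il2rb (1.66, SE 0.49, not past the threshold of 0.05 on adjusted p) lay on the other side. No marker was at 0 in all 4 libraries. The part of these marker changes in the results below was not tested.

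As a group the mitosis and kinetochore genes lay on both sides of 0 and their summed RNA overlapped between genotypes. The sum was 880 and 974 CPM in the knockout and 993 and 922 CPM in wild type, replicate 1 before replicate 2 here and below. The median log2 fold change of the 42 genes was -0.01, where that of all 12003 tested genes was also -0.01, and 20 genes lay above and 22 below 0. At an edgeR quasi-likelihood threshold of 0.05 on adjusted p, 1 gene was higher and 3 were lower in the knockout. Among all tested genes 12.8% passed, 7.6% higher and 5.17% lower, so 4 of 42 is a share near the background. At an unadjusted p under 0.05, 3 of the 42 were higher and 4 lower, where 29.4% of all tested genes passed, 15.7% higher and 13.7% lower. At that cut the share of the 42 genes was below the background.

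The gene that rose was Prc1, which bundles the antiparallel microtubules of the central spindle. Those that fell were Cenpe, the kinetochore motor that carries chromosomes to the spindle equator, Cenpf, a large coiled-coil protein of the outer kinetochore, and Kif2c, a motor that takes microtubules apart at centromeres to correct faulty attachments. The other 38 genes had log2 fold changes from -0.56 to 0.71. For 26 of them the 95% interval of the fold change lay inside a 2-fold change in either direction, and for 9 it lay inside 1.5-fold. For the remaining 12 the interval reached 2-fold, so these data do not settle whether they changed by that much. In bulk RNA, fewer dividing cells and less RNA per dividing cell cannot be told apart.

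**Figure D1:**
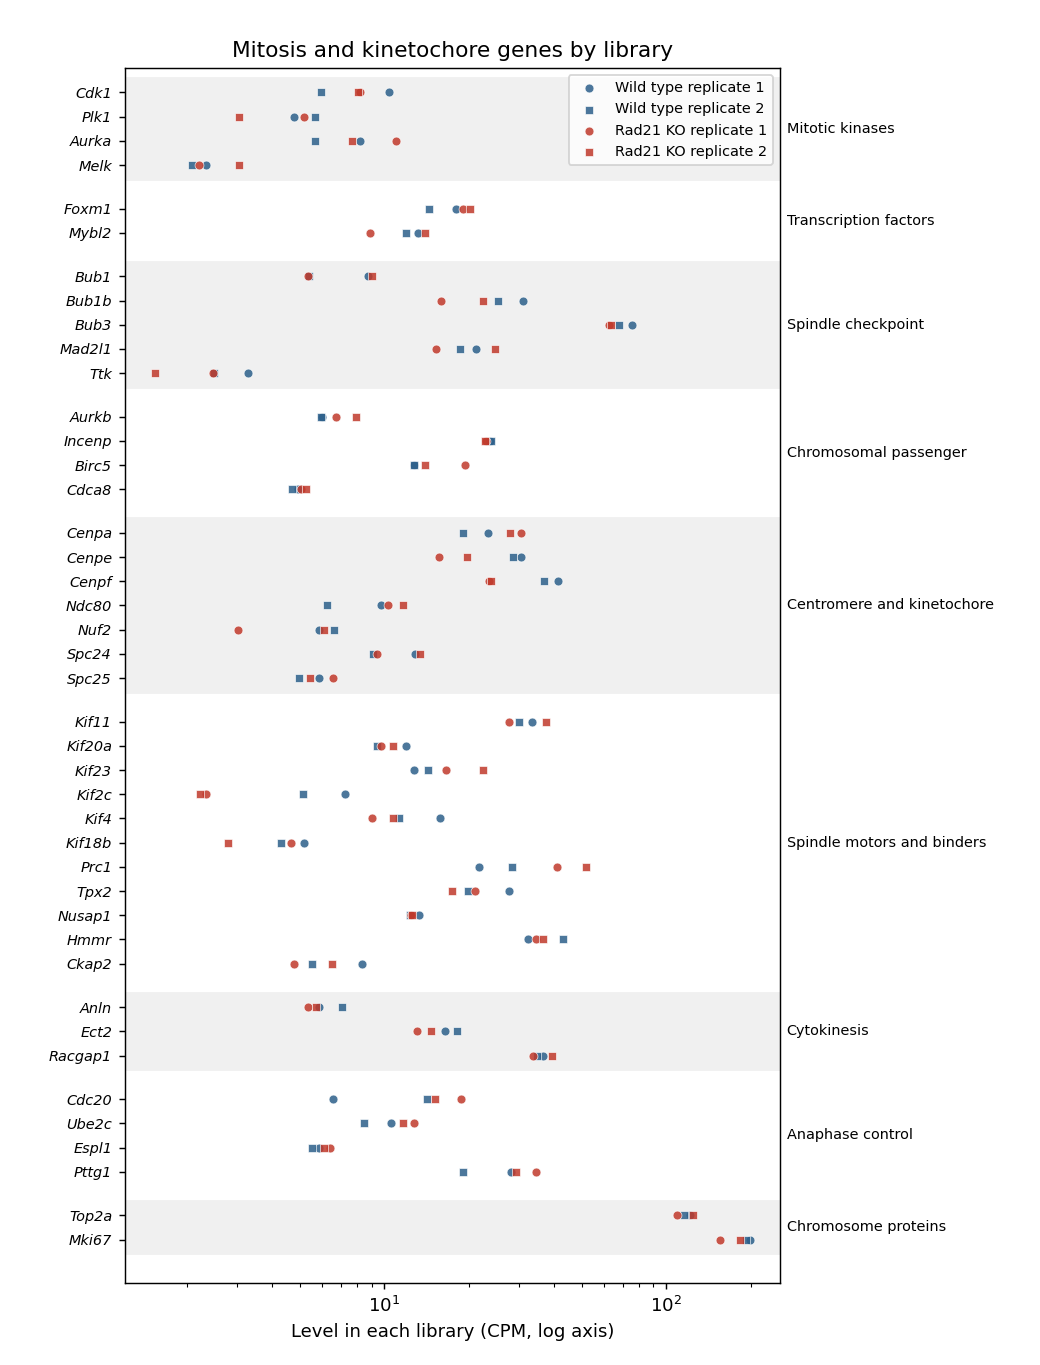
Level of each of the 42 genes in each library (CPM, log axis), grouped by role. Blue marks are the wild type and red marks the Rad21 KO libraries, with circles for replicate 1 and squares for replicate 2. Only for Prc1, Cenpe, Cenpf and Kif2c did the genotypes separate past the threshold, while the marks of Top2a and Mki67 lie furthest to the right, above 100 CPM in every library.

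The start-site sequences of these genes are shown because most of the group shares 2 short elements there. The CHR element (cell cycle genes homology region), read by the MuvB core of the DREAM and B-Myb complexes, was searched as TTTGAA or TTCGAA, and the CCAAT box, bound by NF-Y, as CCAAT. Both strands were searched and the palindrome TTCGAA was counted once. Windows ran from 250 bases before to 50 bases after each RefSeq start site (GRCm38.p6), and 36 of the 42 genes had one. Foxm1, Aurkb, Incenp, Spc24, Kif20a and Tpx2 did not. Below, the 125 bases before the start site are given 5′ to 3′ on the strand of the gene, for the 4 genes past the threshold, 3 genes of anaphase control and Cdk1. Pttg1, the other gene of anaphase control, is not printed. Its window held no CHR and no CCAAT box, as in 7 of the 36 genes. Capitals mark CHR matches (also as the reverse complement, TTCAAA) and CCAAT boxes (also as ATTGG).
Prc1 (chr7:80294351-80294475, plus strand): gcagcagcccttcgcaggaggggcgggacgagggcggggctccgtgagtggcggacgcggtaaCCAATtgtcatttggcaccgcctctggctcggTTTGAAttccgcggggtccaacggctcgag
Cenpe (chr3:135212438-135212562, plus strand): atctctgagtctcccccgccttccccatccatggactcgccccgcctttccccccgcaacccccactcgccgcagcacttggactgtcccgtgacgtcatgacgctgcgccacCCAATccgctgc
Cenpf (chr1:189688087-189688211, minus strand): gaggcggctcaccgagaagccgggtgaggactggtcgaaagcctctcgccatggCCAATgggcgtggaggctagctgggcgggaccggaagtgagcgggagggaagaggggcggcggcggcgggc
Kif2c (chr4:117178773-117178897, minus strand): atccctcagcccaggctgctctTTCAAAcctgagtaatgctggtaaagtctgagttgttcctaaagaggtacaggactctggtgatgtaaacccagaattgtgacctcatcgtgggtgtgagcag
Cdc20 (chr4:118437344-118437468, minus strand): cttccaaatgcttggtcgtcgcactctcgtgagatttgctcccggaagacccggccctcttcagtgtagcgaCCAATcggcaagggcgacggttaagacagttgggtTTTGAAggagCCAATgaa
Ube2c (chr2:164769804-164769928, plus strand): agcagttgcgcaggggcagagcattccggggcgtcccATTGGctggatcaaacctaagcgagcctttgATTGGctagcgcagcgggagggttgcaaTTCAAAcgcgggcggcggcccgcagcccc
Espl1 (chr15:102296168-102296292, plus strand): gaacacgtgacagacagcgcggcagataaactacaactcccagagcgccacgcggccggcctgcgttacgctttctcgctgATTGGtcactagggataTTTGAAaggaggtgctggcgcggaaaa
Cdk1 (chr10:69352913-69353037, minus strand): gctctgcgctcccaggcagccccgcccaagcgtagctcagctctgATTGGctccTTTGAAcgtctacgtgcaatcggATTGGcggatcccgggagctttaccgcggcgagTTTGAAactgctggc

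A CHR match lay in the window of 28 of the 36 genes (77.8%), against 1510 of 9118 tested genes with a window (16.6%). It began between 50 bases before and 50 bases after the start site in 25 of the 36 (69.4%) and in 4.55% of tested genes. A CCAAT box was found in 26 of the 36 genes (72.2%), against 43.2% of tested genes, and both elements in 25 (69.4%), against 8.24%. The E2F element, searched as TTTGGCGC, TTTGCCGC, TTTCCCGC or TTTCGCGC, was found in 1 of the 36 genes, Cdk1, and in 4.81% of tested genes. The 66 other mitosis genes with a window, described further on, held a CHR in 50.0%, a CCAAT box in 60.6% and an E2F element in 10.6%. In 22 DNA replication genes with a window, a CCAAT box was found in 16 (72.7%), a share close to that of the mitosis and kinetochore genes, an E2F element in 11 and a CHR in 5. A match to these letters is a description and not evidence of a bound site.

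Among the printed genes, the CHR of Prc1 began 30 bases before its more downstream start site, with a CCAAT box at position -62. From the other start site, the same bases give positions -5 and -37. In Cdk1 2 CHR matches began at -71 and -15, and CCAAT boxes at -80 and -48 (and -208, outside the printed bases). The CHR of Cenpf began 3 bases after the start and so lies outside the printed bases, that of Kif2c lay at -103 with no CCAAT box in the window, and Cenpe held a CCAAT box at -12 and no CHR. The 4 genes past the threshold therefore did not share 1 arrangement. The 28 genes with a CHR had a median of -0.01 (log2 fold change), and the 8 with a window and no CHR had -0.02.

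**Figure D2:**
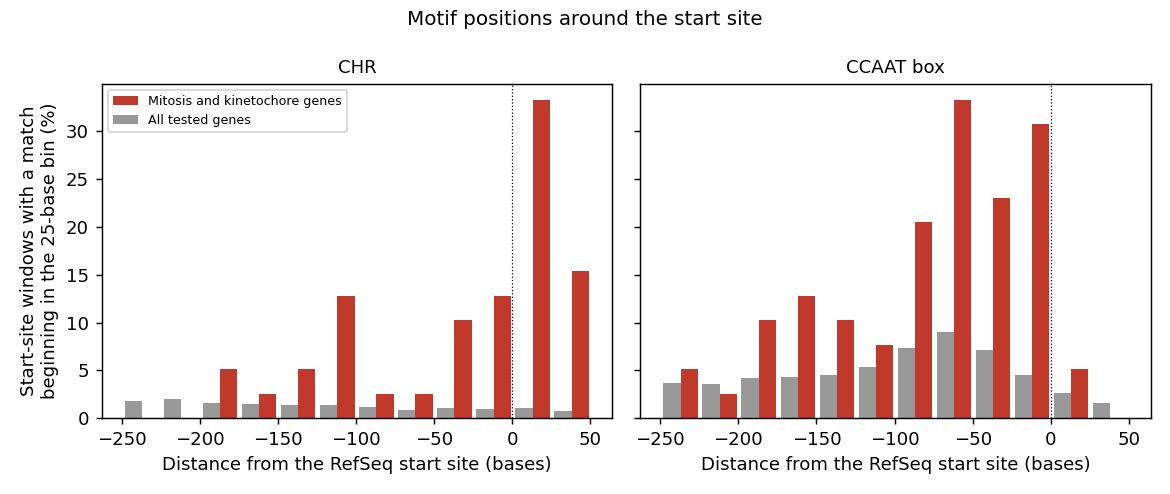
Share of start-site windows (%, vertical axis) with a CHR (left) or CCAAT box (right) match beginning in each 25-base bin, by distance from the RefSeq start site (bases). Red bars are the mitosis and kinetochore genes (39 windows of 36 genes) and grey bars all tested genes (11663 windows of 9118 genes). The red CHR bars are highest just after the start site, where 13 of the 39 windows hold a match, and the red CCAAT bars before it.

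The kinases that drive entry into mitosis did not pass the threshold. Cdk1, the kinase whose activity defines the mitotic state, had the highest CPM of its group, averaged over the libraries, at 8.21 and 8.06 CPM in the knockout and 10.4 and 5.96 in wild type. The knockout values lay between the wild type values, and the log2 fold change was -0.01 (SE 0.31, 95% interval -0.74 to 0.73). Plk1, which acts in spindle assembly, chromosome separation and cytokinesis, stood at -0.34 (SE 0.36). Aurka, the spindle pole kinase, stood at 0.42 (SE 0.30) and the kinase Melk at 0.25 (SE 0.39). None of the 4 had groups that separated, where 58.9% of all tested genes did. Their counts, 15 to 80 per library, left wide intervals.

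Foxm1 and Mybl2 (B-Myb) are the transcription factors that switch on late cell cycle genes. Foxm1 stood at 19.0 and 20.2 CPM in the knockout and 17.9 and 14.4 in wild type (log2 fold change 0.28, SE 0.19, edgeR adjusted p = 0.370). Both knockout values were above both wild type values by a small margin, which 29.7% of all tested genes also showed. Mybl2 had a log2 fold change of -0.14 (SE 0.26), with overlapping groups.

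In the spindle checkpoint 0 of 5 genes passed the threshold, where 12.8% of all tested genes passed. Bub3, which carries its partners to the kinetochore, stood at 62.4 and 63.7 CPM in the knockout and 75.7 and 67.7 in wild type (log2 fold change -0.19, SE 0.12). Bub1b encodes BubR1, the checkpoint protein that binds and restrains Cdc20. It had 15.9 and 22.4 CPM in the knockout and 31.02 and 25.2 in wild type (log2 fold change -0.56, SE 0.21, edgeR adjusted p = 0.138). Its knockout values lay below both wild type values, as did those of Bub3 and of 29.2% of all tested genes. Bub1b passed the threshold only without Rad21 KO replicate 2 (log2 fold change -0.81). The kinase Ttk (Mps1), which starts checkpoint signalling, stood at -0.53 (SE 0.42) on 11 to 24 counts per library. Its knockout values also lay below both wild type values. Bub1, the kinase at the base of the checkpoint platform, stood at 0.02 (SE 0.37) and Mad2l1, the Mad2 protein that restrains Cdc20, at 0.0014 (SE 0.25), both with overlapping groups.

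The chromosomal passenger complex places Aurora B kinase at centromeres and later at the central spindle. Its scaffold Incenp was the most even of the 4 genes, at 22.9 and 22.7 CPM in the knockout and 23.8 and 23.96 in wild type (log2 fold change -0.07, SE 0.15). The kinase gene Aurkb stood at 0.29 (SE 0.26), the survivin gene Birc5 at 0.38 (SE 0.22) and the borealin gene Cdca8 at 0.10 (SE 0.29). All 3 had knockout values above both wild type values, as 29.7% of all tested genes did. The threshold was passed by 0 of the 4 genes and by 12.8% of all tested genes.

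At the centromere and kinetochore 2 of 7 genes fell and 0 rose, where 5.17% of all tested genes fell and 7.6% rose. Cenpf (ENSMUSG00000026605) stood at 23.4 and 23.9 CPM in the knockout and 41.3 and 36.7 in wild type (log2 fold change -0.72, SE 0.14, edgeR adjusted p = 0.0231). Cenpe (ENSMUSG00000045328) stood at 15.6 and 19.6 CPM in the knockout and 30.5 and 28.5 in wild type (log2 fold change -0.74, SE 0.17, edgeR adjusted p = 0.0366). In both genes the knockout libraries lay below both wild type libraries with a clear gap. With or without such a gap, 29.2% of all tested genes had this order. The call of Cenpf was lost without wild type replicate 1 (log2 fold change -0.64) and where low counts were kept. That of Cenpe was lost without Rad21 KO replicate 1 (-0.58), without wild type replicate 1 (-0.70) or 2 (-0.80), and in DESeq2 and where low counts were kept.

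Cenpa, the histone H3 variant that marks the centromere, lay on the other side, at 30.4 and 27.8 CPM in the knockout and 23.4 and 19.0 in wild type, without passing (log2 fold change 0.46, SE 0.17, edgeR adjusted p = 0.128). The 4 subunits of the Ndc80 complex, the rod that grips the microtubule, did not pass either. Ndc80 stood at a log2 fold change of 0.46 (SE 0.28), Nuf2 at -0.46 (SE 0.38), Spc24 at 0.05 (SE 0.27) and Spc25 at 0.14 (SE 0.29). Summed over the 4, the level was 29.3 and 36.6 CPM in the knockout and 34.3 and 27.01 in wild type, so the genotypes overlapped.

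Motors and microtubule binders of the spindle included the gene that rose and the gene with the largest fall of the 42. Prc1 (ENSMUSG00000038943) stood at 41.1 and 51.7 CPM in the knockout and 21.6 and 28.3 in wild type (log2 fold change 0.90, SE 0.19, edgeR adjusted p = 0.0267), or 1.86-fold. Kif2c (ENSMUSG00000028678) stood at 2.33 and 2.22 CPM in the knockout and 7.24 and 5.12 in wild type (log2 fold change -1.44, SE 0.35, edgeR adjusted p = 0.0420). Behind the Kif2c values lie 17 and 16 counts in the knockout and 53 and 37 in wild type. For both genes the genotypes were well apart. Prc1 did not pass when Rad21 KO replicate 2 (0.73) or wild type replicate 1 (0.71) was dropped, or where low counts were kept. Kif2c did not pass once any single library was dropped (-1.67 to -1.17), nor in DESeq2, nor where low counts were kept.

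The partners of Prc1 in the central spindle did not pass. Kif4, the chromokinesin that works with Prc1 on overlapping microtubules, stood at -0.45 (SE 0.24), and Kif20a, which brings the passenger complex to the central spindle, at -0.06 (SE 0.23). Kif23, the motor of the centralspindlin complex, had 16.6 and 22.4 CPM in the knockout and 12.7 and 14.3 in wild type (log2 fold change 0.53, SE 0.21, edgeR adjusted p = 0.150). Racgap1, the GTPase-activating partner of Kif23, stood at 33.5 and 39.3 CPM in the knockout and 36.6 and 34.8 in wild type (log2 fold change 0.03, SE 0.14).

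Of the other spindle genes, Hmmr, a microtubule-binding protein of the spindle, had the highest CPM of these 11 genes averaged over the 4 libraries, at 34.4 and 36.6 CPM in the knockout and 32.4 and 43.1 in wild type. Its log2 fold change was -0.09 (SE 0.17), and the wild type values enclosed those of the knockout. Kif11 (Eg5), which pushes the spindle poles apart, stood at 0.04 (SE 0.18) and Nusap1, which binds microtubules near chromosomes, at -0.04 (SE 0.19). Tpx2, the activator of Aurora A on the spindle, stood at -0.31 (SE 0.21), Kif18b, a motor on astral microtubules, at -0.35 (SE 0.37) and the microtubule binder Ckap2 at -0.29 (SE 0.33).

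Cytokinesis divides the cell after the chromosomes have parted. The scaffold gene Anln (anillin) stood at a log2 fold change of -0.23 (SE 0.28), and Ect2, the exchange factor that activates RhoA at the division plane, at -0.32 (SE 0.18). Both had knockout values below both wild type values, as 29.2% of all tested genes did. The threshold was passed by 0 of the 3 genes of this role, Racgap1 included, and by 12.8% of all tested genes.

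**Figure D3:**
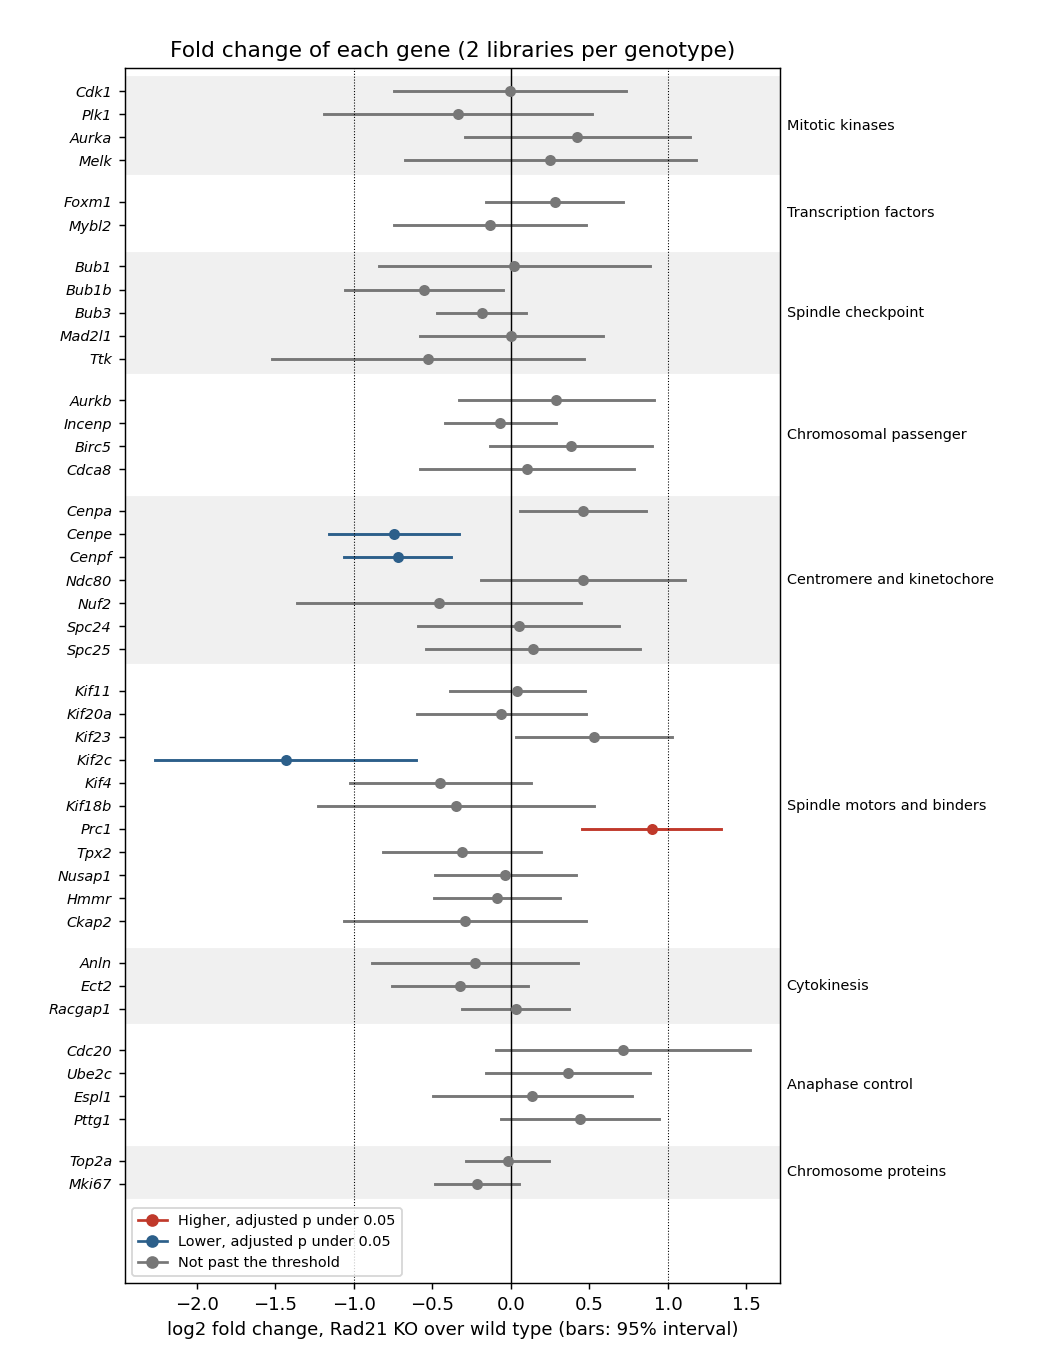
log2 fold change of Rad21 KO over wild type for each of the 42 genes (points, horizontal axis) with its 95% interval (bars), grouped by role, 2 libraries per genotype. Dotted lines mark a 2-fold change. Prc1 (red, 0.90) and Cenpe, Cenpf and Kif2c (blue, -0.74, -0.72 and -1.44) passed an adjusted p of 0.05, and the grey genes did not.

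The 4 genes of anaphase control all had higher values in both knockout libraries than in either wild type library, as 29.7% of all tested genes did. The threshold was passed by 0 of the 4 and by 12.8% of all tested genes. Cdc20 activates the anaphase-promoting complex, the ubiquitin ligase that ends mitosis. It stood at 18.8 and 15.1 CPM in the knockout and 6.56 and 14.1 in wild type (log2 fold change 0.71, SE 0.34, edgeR adjusted p = 0.220). The 2 wild type libraries were further apart than the lower knockout library was from the higher wild type library, and the gene passed only without wild type replicate 2 (1.36). Ube2c, the ubiquitin-conjugating enzyme of that ligase, stood at 12.7 and 11.7 CPM in the knockout and 10.52 and 8.45 in wild type (log2 fold change 0.36, SE 0.22).

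Pttg1 encodes securin, which holds separase inactive until it is degraded. It stood at 34.5 and 29.3 CPM in the knockout and 28.0 and 19.0 in wild type (log2 fold change 0.44, SE 0.21, edgeR adjusted p = 0.222). Espl1 encodes separase, the protease that cuts Rad21, and its level was 6.43 and 6.12 CPM in the knockout and 5.88 and 5.54 in wild type (log2 fold change 0.14, SE 0.27). Summed over the 4 genes, the level was 72.4 and 62.3 CPM in the knockout and 51.0 and 47.1 in wild type. Other roles also had sums that separated. The chromosomal passenger sum was higher in the knockout (53.9 and 49.8 against 47.4 and 47.4 CPM). The sums of the centromere and kinetochore genes (98.7 and 107.9 against 129.4 and 111.2) and of Top2a with Mki67 (264 and 306 against 320 and 308) were lower. In the remaining roles the sums overlapped. Across all 42 genes, 12 had knockout values above and 11 below both wild type values, so that 23 of 42 had groups that did not overlap, against 58.9% of all tested genes.

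Top2a and Mki67, widely used as marks of dividing cells, had the highest CPM of the 42 genes and together made up 30.0% to 33.4% of the summed CPM in each library. CPM is not scaled to transcript length, so a gene named as highest in CPM need not have the most transcripts. Top2a, the topoisomerase that untangles sister chromatids, stood at 109.5 and 124.7 CPM in the knockout and 121.5 and 115.8 in wild type (log2 fold change -0.02, SE 0.11, 95% interval -0.28 to 0.25). Mki67, which encodes the Ki-67 protein that coats mitotic chromosomes, stood at 154 and 182 CPM in the knockout and 198 and 192 in wild type (log2 fold change -0.22, SE 0.11, 95% interval -0.48 to 0.05, edgeR adjusted p = 0.253). Both intervals lay inside a 1.5-fold change in either direction.

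Differences between replicates and between genotypes had medians of similar size, but they are unlike measures. The fold change sets 2 libraries against 2, and a replicate difference sets 1 against 1, so the medians do not show equal variation. The median size of the log2 fold change was 0.29 over the 42 genes, beside a median difference of 0.24 between the 2 knockout libraries and 0.26 between the 2 wild type libraries. In 14 of the 42 genes (33.3%) the fold change exceeded both replicate differences, against 46.6% of all tested genes. Rad21 KO replicate 1 gave the lowest value of the 4 libraries for 16 of the 42 genes and wild type replicate 2 for 15, while Rad21 KO replicate 2 and wild type replicate 1 each gave the highest for 14. The libraries at the low end were thus 1 of each genotype. Removing single libraries moved the median log2 fold change between -0.09 and 0.08.

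Other genes of division, from fixed lists of kinetochore, spindle and mitotic entry and exit genes, gave a similar picture. Of 77 such genes 75 were tested, of which 0 rose and 4 fell (5.33%, beside the 12.8% of all tested genes), and the median was -0.05 (log2). At an unadjusted p under 0.05, 4 were higher and 7 lower, where 15.7% and 13.7% of all tested genes were. The genes not tested were Ska1, at 4 to 11 counts per library, and Cdc25c, at 6 to 9.

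The genes that fell came from 3 of the 4 lists. Hjurp, the chaperone that loads Cenpa onto centromeres, stood at 225 and 197 CPM in the knockout and 288 and 391 in wild type (log2 fold change -0.69, SE 0.16, edgeR adjusted p = 0.0348). Cenpo, of the inner kinetochore, had 20.7 and 21.3 CPM in the knockout and 35.3 and 33.5 in wild type (log2 fold change -0.71, SE 0.14). Ska2, of the complex that couples kinetochores to shortening microtubules, had 11.6 and 12.4 CPM in the knockout and 20.1 and 20.6 in wild type (-0.76, SE 0.17). Wild type replicates of these 2 genes were close together, while those of Hjurp were far apart. Cdc25b, the phosphatase that activates Cdk1, had 29.02 and 30.6 CPM in the knockout and 47.4 and 41.4 in wild type (-0.58, SE 0.14). All 4 passed an adjusted p of 0.05. Each also had both knockout libraries below both wild type libraries, as 29.2% of all tested genes did. Keeping low counts ended all 4 calls, and DESeq2 those of Ska2 and Cdc25b. Leaving out 1 library could also end each call: either wild type replicate or Rad21 KO replicate 1 for Ska2, either wild type replicate for Cenpo, Rad21 KO replicate 2 or wild type replicate 2 for Hjurp and any of the 4 libraries for Cdc25b. In the list of other spindle genes 0 of 20 passed, where 12.8% of all tested genes did. Its genes of highest CPM, Numa1 and Ckap5, which organise spindle poles and microtubules, stood at 0.20 (SE 0.12) and 0.16 (SE 0.11).

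Genes of DNA replication, which are transcribed earlier in the cycle, had 5 of 28 members higher and 0 lower (17.9%, beside 7.6% higher and 5.17% lower among all tested genes), and the median was 0.04 (log2). The counts were the same at an unadjusted p under 0.05, where 15.7% of all tested genes were higher and 13.7% lower. Pold1, the catalytic subunit of polymerase delta, had 46.5 and 58.5 CPM in the knockout and 31.6 and 19.5 in wild type (log2 fold change 1.04, SE 0.24). Rfc3, a subunit of the clamp loader, had 23.96 and 35.3 CPM in the knockout and 16.5 and 13.4 in wild type (0.98, SE 0.23). In both genes the replicates of each genotype were well apart. Their knockout values lay above both wild type values, as in 29.7% of all tested genes. The licensing factor Cdt1 had 35.04 and 42.7 CPM in the knockout and 21.9 and 21.1 in wild type (0.86, SE 0.16). The origin recognition subunit Orc1 had 27.1 and 24.6 CPM in the knockout and 15.6 and 13.02 in wild type (0.85, SE 0.18). The fifth gene was Pcna, the sliding clamp of the replication fork. It had 176.7 and 219.7 CPM in the knockout and 140.7 and 131.8 in wild type (0.54, SE 0.13). Keeping low counts ended all 5 calls. Wild type replicate 2 or Rad21 KO replicate 2 ended the calls of Pold1, Rfc3 and Pcna when left out (leaving 1 and 2 of the 28 genes called), and wild type replicate 2 or Rad21 KO replicate 1 that of Orc1. The difference between the replication and mitosis lists was not tested. Their values stand side by side in the plot of fold changes by gene list.

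**Figure D4:**
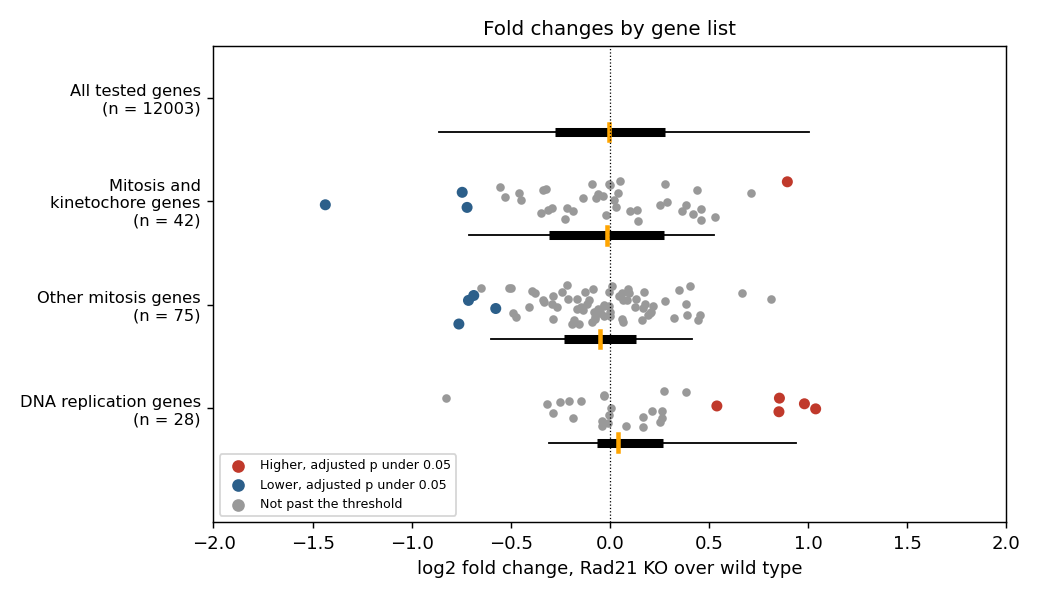
log2 fold change of Rad21 KO over wild type (horizontal axis) for the 42 mitosis and kinetochore genes, 75 other mitosis genes and 28 DNA replication genes, each point a gene, with bars for all 12003 tested genes and for each list. Orange lines are medians, thick bars run from the 25 to the 75 percentile and thin bars from the 5 to the 95 percentile. The medians lie between -0.05 and 0.04, and the coloured genes past the threshold are 1 higher and 3 lower, 4 lower, and 5 higher in the lists from top to bottom.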

How the data were processed

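Total RNA of sorted thymocytes was depleted of ribosomal RNA and made into TruSeq libraries, per the labels' protocols. The authors deposited count equivalents per Ensembl gene, treated as estimated counts, although every value is whole and rounding changed none. Per the submitters' processing notes, reads were placed on mm9. Which aligner, counter and strand setting served was not given in the sources used here; counts of overlapping genes are therefore uncertain. Column names spell Rad21 without a digit and were matched to samples by the rest of the name. The deposited peak lists (mm9) were not used, because the reference tables are GRCm38.p6 and coordinates cannot be mixed. For the same reason lengths were not related to fold changes.

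Symbols were found for 17342 of 17849 identifiers. All genes were fitted in R 4.3.3 (edgeR 4.0.16) after filterByExpr and TMM, by a quasi-likelihood test for genotype without a block, adjusted by Benjamini-Hochberg over 12003 genes. Standard errors are the fold change over the square root of F, and 95% intervals use the test's degrees of freedom. Since no label says that separate animals were used, the p-values reflect only how far these samples spread, possibly for technical reasons. The genes, lists and tests were chosen with earlier results of these data known. Named are Rad21, every one of the 42 genes, and from each other list up to 4 genes past the threshold or otherwise the 2 most abundant. Library values are given for genes past the threshold on the lists of division genes and for the gene of highest CPM in each role, and further ones (Pcna included) were chosen after their values were seen. Alternatives were DESeq2 1.42.0, DESeq2 size factors, limma-voom (limma 3.58.1), no filter, a replicate block, leaving out Lars2 and Gm15564, and leaving out each library.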

Additional observations from a re-analysis of the deposited data

How the results depend on the processing

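The 4 genes past the threshold kept their direction under all 10 alternatives, as did 29 of the 42 genes. The number of the 42 genes called higher, 1 as reported, was 0 with no filter on low counts and 0 to 2 when single libraries were left out. The number called lower, 3 as reported, was 1 in DESeq2, 0 with no filter and 0 to 3 when single libraries were left out. The median log2 fold change of the 42 genes ranged from -0.093 to 0.081 when single libraries were left out.

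The replicate numbers could be fitted as a block, but same-numbered samples did not deviate together (r = 0.04 across 12003 genes, which are not independent). With the replicate block 1 of the 42 genes was higher and 1 lower (Cenpe and Kif2c did not pass, nor did Hjurp, Ska2, Cdc25b, Pold1, Rfc3 and Pcna), and all genes called numbered 644 higher and 381 lower against 912 and 621. With no filter on low counts they numbered 285 and 148, and without single libraries 574 to 880 and 373 to 558.

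Reversed signs occurred only in genes far from the threshold. Cdk1 stood at 0.046 in limma-voom and 0.030 with the replicate block, and Mad2l1 at -0.038, -0.0038, -0.028 and -0.0081 in limma-voom, with no filter, with the replicate block and without Lars2 and Gm15564. Leaving out single libraries gave ranges of -0.36 to 0.45 for Cdk1, -0.76 to 0.0071 for Plk1, -0.48 to 0.16 for Mybl2, -0.39 to 0.41 for Bub1, -0.37 to 0.32 for Mad2l1, -0.20 to 0.31 for Spc24, -0.18 to 0.25 for Kif11, -0.22 to 0.11 for Kif20a, -0.092 to 0.016 for Nusap1, -0.28 to 0.13 for Hmmr, -0.56 to 0.029 for Ckap2, -0.075 to 0.15 for Racgap1 and -0.10 to 0.080 for Top2a. The cause was not tested. Settings for peaks at these genes were not run, since no mm9 annotation was used here. With 2 libraries per genotype, depth limits the genes of few counts most.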

Other observations

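The calls among the 42 genes differed in how they held across settings. Of 10 alternatives, Cenpf passed in 8, Prc1 in 7, Cenpe in 4 and Kif2c in 3, while Rad21 passed in all 10. Bub1b and Cdc20 passed in 1 each.

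Some of these promoters held CCAAT boxes in pairs, at a spacing chosen after the matches were seen, so the shares are a description only. In 6 of the 36 genes with a window (16.7%) 2 boxes began 31 to 34 bases apart, against 2.42% of 9118 tested genes, 13.6% of the other mitosis genes and 0 of the 22 DNA replication genes. Among all tested genes, 629 held a CHR match from 100 bases before to 50 bases after the start. In the knockout 35 of them were higher (5.56%) and 34 lower (5.41%), beside 7.6% and 5.17% of all tested genes, and their median log2 fold change was -0.07.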
